A study of Mus musculus with 2 samples.

Results

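The 9 transcription factor genes *Trp73*, *Lhx1*, *Lhx5*, *Ebf1*, *Ebf2*, *Ebf3*, *Nhlh1*, *Nhlh2* and *Tbr1*, which are used to identify Cajal-Retzius (CR) cells, were followed in hippocampal CR cells of the mouse. They were taken by symbol, and all 9 were present among the 32285 genes counted. Their transcripts were counted by droplet single-cell RNA-sequencing, with 1 library of sorted cells per genotype at postnatal day (P) 14. For the control library 4 mice (3 males and 1 female) of the genotype *ΔNp73-Cre; Cic flox/+; tdT*, conditionally heterozygous, were pooled. For the knockout library 4 mice (2 males and 2 females) of the genotype *ΔNp73-Cre; Cic flox/flox; tdT* were pooled. The floxed gene *Cic* encodes capicua, a transcriptional repressor. All mice of both groups carried the Cre driver and the tdT reporter, and cells were sorted as DAPI-negative and tdT-positive. Cre in this line is driven from the internal promoter of *Trp73*, so the sort was tied to 1 of the 9 genes, and recombination of *Cic* was not complete in all CR cells of the knockout. With 1 library per genotype and no replicate, no test between genotypes could be made. All intervals below are exact 95% intervals and cover counting error only.

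CR cells are early-born, mostly transient glutamatergic neurons of the marginal zone and hippocampal fissure, and they secrete reelin. *Trp73* encodes p73, a member of the p53 family, and its internal promoter gives the ΔN form, which lacks the amino-terminal transactivation domain. *Lhx1* and *Lhx5* encode LIM-homeodomain factors, which act together with LDB cofactors. The EBF genes encode helix-loop-helix DNA-binding proteins of neuronal and lymphoid development, *Nhlh1* and *Nhlh2* encode basic helix-loop-helix factors of young neurons that pair with E proteins, and *Tbr1* encodes a T-box factor of early-born glutamatergic neurons.

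A barcode was taken as a cell when it held at least 2000 UMIs (unique molecular identifiers, each standing for 1 captured transcript). This gave 1011 control cells with a median of 6222 UMIs (range 2012 to 31769) and 406 knockout cells with a median of 6440.5 UMIs (range 2017 to 33453). No barcode was shared by the cells of the libraries. All 7 markers of CR cells that were examined, *Reln* among them, were seen in 25% or more of cells in both libraries (15120 and 14320 CPM summed, where CPM are UMIs per 1000000). None of 7 GABAergic markers was, and 3 of these were at 0 UMIs in each library (2.86 and 4.27 CPM summed). Of 11 further lists of other cell types, those of astrocytes (108 and 129.7 CPM), precursors (60.7 and 79.3 CPM) and mural cells (81.5 and 94.9 CPM) each had 1 marker in 25% or more of cells. Ependymal and choroid markers summed to 547 and 1114 CPM. *Cic* itself had 390 UMIs in control cells (58.8 CPM) and 142 in knockout cells (50.5 CPM), but a 3′ read does not show whether the floxed part of a transcript was present. A few sorted barcodes did not look like CR cells. Fewer than 5 *Reln* UMIs were found in 8 control and 16 knockout barcodes, of which 4 in each library held at least 50 UMIs of the choroid plexus genes *Ttr* and *Folr1*. The counts of factors by genotype, by marker and against faint barcodes were the same without them.

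Regulatory sequence is shown for 5 of the genes. *Trp73* supplied the promoter of the Cre driver, and the other 4 were each higher in a subset of the cells described further below. *Lhx5* was also higher in that subset, but no window was available for it. The sequences lie before a RefSeq transcription start on GRCm38.p6 and are read 5′ to 3′ on the strand of the gene. Bases in an exon of the gene itself were left out, except that the *Tbr1* window lies in an exon of a non-coding transcript. This took off the 69 bases nearest the start in *Nhlh2* and 1 base in *Lhx1*. Exons of other genes were not left out. The part of the *Lhx1* window from chr11:84525660 on lies within the span of *Lhx1os*, on the opposite strand. The *Trp73* window lies within the spans of *Trp73* and of the antisense gene *Trp73os*. Capitals mark TAATTA, a core that LIM-homeodomain proteins can bind.
*Trp73* internal start, chr4:154097174-154097423, minus strand: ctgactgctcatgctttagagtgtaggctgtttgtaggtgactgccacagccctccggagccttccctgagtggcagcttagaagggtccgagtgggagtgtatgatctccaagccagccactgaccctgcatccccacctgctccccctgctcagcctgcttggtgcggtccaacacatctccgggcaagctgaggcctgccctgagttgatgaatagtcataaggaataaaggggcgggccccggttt
*Lhx1*, chr11:84525536-84525784, minus strand: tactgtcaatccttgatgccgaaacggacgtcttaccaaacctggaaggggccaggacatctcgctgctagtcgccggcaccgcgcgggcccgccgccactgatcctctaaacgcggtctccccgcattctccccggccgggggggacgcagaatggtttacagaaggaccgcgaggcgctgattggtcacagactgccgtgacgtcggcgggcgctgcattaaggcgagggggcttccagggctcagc
*Nhlh1*, chr1:172057597-172057846, minus strand: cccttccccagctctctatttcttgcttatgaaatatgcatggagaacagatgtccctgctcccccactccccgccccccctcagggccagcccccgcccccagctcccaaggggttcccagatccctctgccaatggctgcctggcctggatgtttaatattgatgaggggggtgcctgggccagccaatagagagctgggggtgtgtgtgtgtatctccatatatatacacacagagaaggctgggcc
*Nhlh2*, chr3:102009895-102010075, plus strand: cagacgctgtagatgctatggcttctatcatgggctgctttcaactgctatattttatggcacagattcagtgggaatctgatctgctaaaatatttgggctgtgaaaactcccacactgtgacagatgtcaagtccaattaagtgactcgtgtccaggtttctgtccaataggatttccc
*Tbr1*, chr2:61804203-61804452, plus strand: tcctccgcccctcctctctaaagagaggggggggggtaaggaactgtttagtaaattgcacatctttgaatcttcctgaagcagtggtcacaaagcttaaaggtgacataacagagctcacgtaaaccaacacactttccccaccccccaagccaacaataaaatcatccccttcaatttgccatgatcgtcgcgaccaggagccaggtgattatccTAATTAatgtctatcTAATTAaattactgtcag

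The 250 bases before the start were searched on both strands for the octamers TGAATGAA, TGAATGGA, TCAATGAA and TCAATGGA that CIC can bind, for an EBF palindrome (TCCC and GGGA with 2 bases between), CAGCTG (E-box), TAATTA (LIM-homeodomain) and AGGTGTGA (T-box). The table held 9 such windows for 7 of the 9 genes. *Tbr1* had 2 TAATTA matches, 33 to 28 and 18 to 13 bases before its start, and 4.84% of the 32851 windows of all genes held this hexamer. The window of the first *Trp73* start, 42702 bases upstream of the internal one, held CAGCTG, found in 13.0% of all windows. No CIC octamer stood in any of the 9 windows, and 3.19% of all windows held 1 or more. These matches are a description of letters in short windows only.

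On GRCm38, in the GENCODE M21 annotation, *Trp73* spans chr4:154056253-154140208 (minus strand), *Lhx1* chr11:84518284-84525535 (minus), *Lhx5* chr5:120431699-120441223 (plus), *Ebf1* chr11:44617317-45008091 (plus), *Ebf2* chr14:67233292-67430918 (plus), *Ebf3* chr7:137193673-137314445 (minus), *Nhlh1* chr1:172052292-172057573 (minus), *Nhlh2* chr3:102010076-102015492 (plus) and *Tbr1* chr2:61802930-61814114 (plus). Transcripts on the opposite strand were also counted in these cells. *Gm27199*, which overlaps the first 69 bases of *Lhx5*, had 202 CPM in control and 197 CPM in knockout cells, more than *Lhx5* itself. *Gm10578*, inside *Ebf3*, had 120 and 111 CPM, and *Trp73os*, inside *Trp73*, had 3.31 and 2.13 CPM. Since the handling of strand was not given in the sources used here, the values of *Lhx5* and *Ebf3* are less certain than the others. *Lhx1os*, which starts 125 bases from *Lhx1* on the other strand, had 234 and 226 CPM, about the level of *Lhx1*.

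The factors covered a wide range of levels, and their order was the same in both libraries. The total behind CPM leaves out mitochondrial and ribosomal protein genes. Levels were not divided by gene length, as is usual for 3′ counts. Whether reads in introns were counted was not given, and the genes span from 5282 bases (*Nhlh1*) to 390775 bases (*Ebf1*). The part of gene length in the order of levels was not tested. *Ebf3* was the highest, with 850.3 CPM (828 to 873) in control and 827 CPM (794 to 861) in knockout cells, and ranked 99 and 106 among all genes with a UMI (20434 and 18960). *Trp73* followed with 469 CPM (452 to 485) and 485 CPM (459 to 511). Both genes were thus among the more abundant transcripts of a CR cell. *Nhlh2* had 242 CPM (230.1 to 254) and 267 CPM (249 to 287), and *Lhx1* had 218 CPM (206 to 229) and 219 CPM (202 to 237). *Tbr1* had 104 CPM (95.9 to 112) and 107 CPM (95.6 to 120.2). From *Ebf3* to *Tbr1*, no interval overlapped that of its neighbour in either library.

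The lower end of the order held *Lhx5*, *Ebf1*, *Nhlh1* and *Ebf2*. *Lhx5* had 78.2 CPM (71.6 to 85.2) and 88.9 CPM (78.2 to 101), and *Ebf1* had 68.2 CPM (62.1 to 74.8) and 78.6 CPM (68.5 to 89.6). The intervals of *Lhx5* and *Ebf1* overlapped in both libraries, and those of *Tbr1* and *Lhx5* in knockout, so these orders were not settled. *Nhlh1* had 29.8 CPM (25.8 to 34.3) and 23.5 CPM (18.1 to 29.9). *Ebf2* had 6.03 CPM (4.31 to 8.21) and 4.62 CPM (2.46 to 7.90), from 40 and 13 UMIs, and ranked 10860 and 11674. Within each family 1 gene prevailed, *Ebf3* over *Ebf1* and *Ebf2*, *Lhx1* over *Lhx5*, and *Nhlh2* over *Nhlh1*, with intervals that did not overlap.

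**Figure D1:**
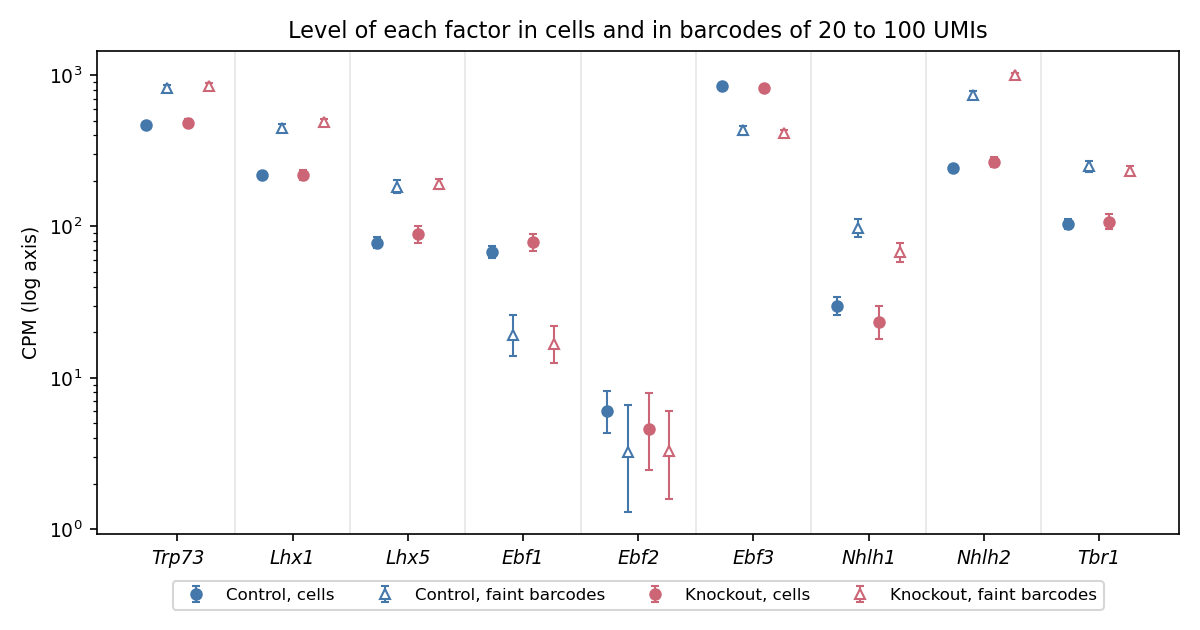
CPM (log axis) of each factor in cells of at least 2000 UMIs (filled circles) and in faint barcodes of 20 to 100 UMIs (open triangles), in the control and the knockout library. Bars are exact 95% Poisson intervals. *Ebf3* and *Ebf1* were higher in cells than in faint barcodes, and *Trp73*, *Lhx1*, *Lhx5*, *Nhlh1*, *Nhlh2* and *Tbr1* were lower in cells.

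Most cells carried few UMIs of any 1 factor. *Ebf3* had a UMI in 970 of 1011 control cells (95.9%) and 380 of 406 knockout cells (93.6%), with a median of 5 UMIs per cell in each library and at most 40 and 33. *Trp73* had a UMI in 88.1% and 89.2% of cells, with medians of 2 and 3 UMIs. These were the only 2 factors seen in more than 80% of cells. *Nhlh2* was seen in 60.4% and 61.8%, *Lhx1* in 60.2% and 62.3%, and *Tbr1* in 40.6% and 42.1%. *Lhx5* was seen in 32.3% and 38.9%, *Ebf1* in 19.2% and 22.9%, *Nhlh1* in 11.9% and 9.85%, and *Ebf2* in 2.97% and 2.71% of cells. After each cell was thinned at random to 2000 UMIs, which removes differences in depth, the shares of *Ebf3* were 76.1% (73.3 to 78.7) and 71.4% (66.8 to 75.8), and those of *Trp73* 55.4% (52.3 to 58.5) and 52.5% (47.5 to 57.4).

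*Ebf1* was spread unevenly over cells. Only 194 control cells had a UMI of it, yet 23 of these held 5 or more and 1 held 14. After thinning, its variance over cells was 1.83 times its mean in control and 1.91 times in knockout cells, against 1.04 and 0.988 for *Lhx5*, which had a similar level. Counts of *Lhx5* were thus spread about as Poisson counts would be, and counts of *Ebf1* were wider. *Nhlh1* in control cells had 17 of its 198 UMIs in a single cell. The ratio of variance to mean was also 1.39 and 1.37 for *Ebf3*, 1.31 and 1.16 for *Lhx1*, 1.25 and 1.14 for *Trp73*, and 1.24 and 1.296 for *Nhlh2*. Intervals that assume Poisson counts are therefore too narrow for these genes, and most so for *Ebf1*. The main results on *Ebf1* and *Nhlh1* are given below also without the cells that held most of their UMIs.

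**Figure D2:**
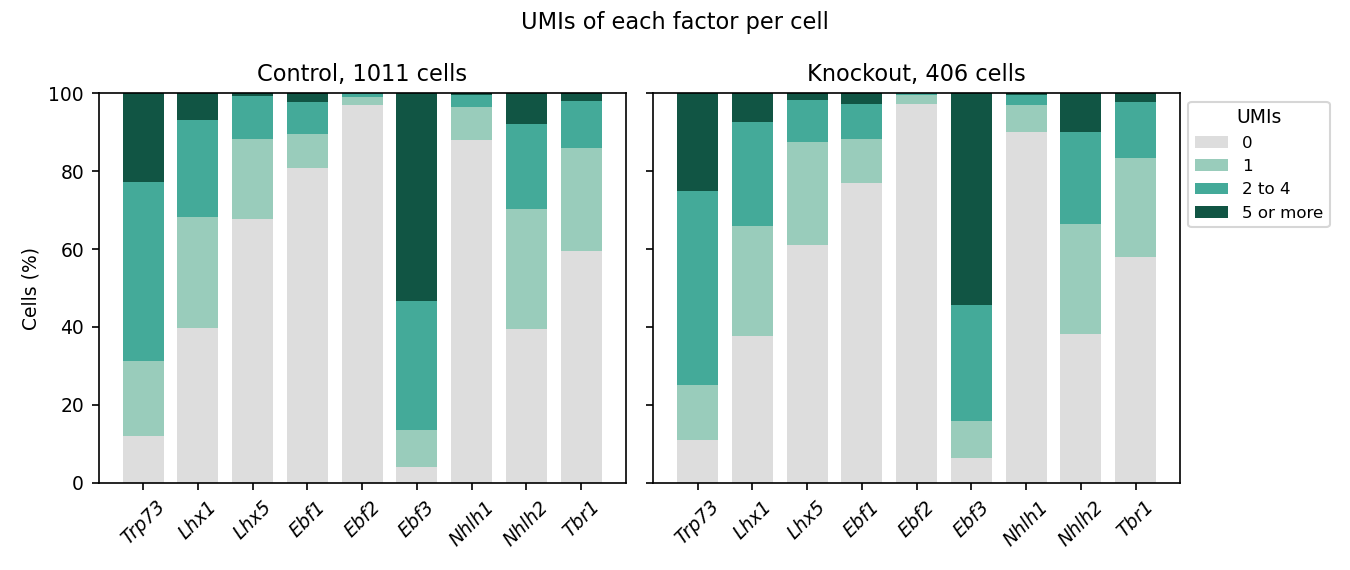
Share of cells (%) with 0, 1, 2 to 4, and 5 or more UMIs of each factor, in 1011 control and 406 knockout cells. *Ebf3* and *Trp73* were seen in most cells, whereas *Ebf2* was seen in under 3%.

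The barcodes with few *Reln* UMIs show what the factors look like in sorted barcodes that lacked the main CR marker. The 8 control barcodes held 3 UMIs of all 9 factors together, or 81.6 CPM, against 2075 CPM in the other 1003 cells. The 16 knockout barcodes held 25 UMIs, or 528 CPM, against 2127 CPM in the other 390. Of these barcodes, 6 of 8 and 7 of 16 held no factor at all, as against 1 of 1003 and 0 of 390 other cells. *Trp73* had a UMI in 1 of the 8 and in 2 of the 16 barcodes, and in 88.7% and 92.3% of the others. *Ebf3* had a UMI in 2 of the 8 and 1 of the 16. The barcodes with few *Reln* UMIs were shallower, with medians of 3157 and 3038 UMIs against 6224 and 6664.

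The share of free RNA in these values was estimated from the faint barcodes. If each cell had taken up the mean number of UMIs that a faint barcode of 20 to 100 UMIs held, this would account for 2.01% of the *Trp73* UMIs of control cells and 1.02% of those of knockout cells, and for 0.579% and 0.29% of the *Ebf3* UMIs. The highest such value was 3.73%, for *Nhlh1* in control cells. In faint barcodes, *Trp73* had a UMI in 5.78% of 29040 control and 3.18% of 75813 knockout barcodes, which had medians of only 89 and 44 UMIs. The control median lay near the upper limit of 100 UMIs. The estimate thus depends on that limit, may be too low in control, and cannot be compared between the libraries.

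The faint barcodes themselves had another makeup than the cells, and here the factors split. *Ebf3* was 1.97-fold (1.84 to 2.12) higher in control cells than in control faint barcodes and 2.00-fold (1.86 to 2.14) higher in the knockout library, at 431 and 414 CPM in the faint barcodes. *Ebf1* was 3.54-fold (2.58 to 4.98) and 4.68-fold (3.44 to 6.48) higher in cells, at 19.3 and 16.8 CPM in the faint barcodes. The other 6 factors with enough UMIs were lower in cells. *Nhlh2* had 745 CPM in control and 1001 CPM in knockout faint barcodes, so that cells held 0.325 (0.303 to 0.348) and 0.267 (0.246 to 0.289) of that level. The ratios of cells to faint barcodes were 0.307 and 0.348 for *Nhlh1*, 0.413 and 0.458 for *Tbr1*, 0.427 and 0.465 for *Lhx5*, 0.486 and 0.445 for *Lhx1*, and 0.569 and 0.567 for *Trp73*. *Ebf2* had 7 and 10 UMIs in the faint barcodes, with ratios of 1.88 (0.831 to 4.96) and 1.40 (0.569 to 3.58). All 8 factors with at least 100 UMIs differed by at least 1.5-fold in each library, and so did 73.0% and 72.7% of all genes tested, so this count does not set the factors apart.

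The split by direction was the same in the libraries, with 2 factors higher and 6 lower in cells, where 40.3% of all control and 37.1% of all knockout genes were higher and 32.7% and 35.6% lower. *Reln*, for comparison, was 8.50-fold and 8.80-fold higher in cells. The split depended on which barcodes were called faint. With barcodes of 10 to 50 UMIs, *Ebf1* had a ratio of 0.956 and *Tbr1* of 1.45 in control, and 4 rather than 8 factors passed 1.5-fold. Whether faint barcodes hold cell fragments, nuclei or free RNA was not tested.

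Between genotypes, all 9 factors were found in both libraries at close levels. None of the 8 factors with at least 100 UMIs over both libraries differed by 1.5-fold, whereas 4.45% of 9497 genes did. The median log2 ratio of knockout to control was 0.05 over the 8 factors and 0.01 over all genes. *Nhlh2* was 1.11-fold (1.01 to 1.21) higher in knockout cells, the only factor whose interval left out 1, but after thinning every cell to 2000 UMIs its ratio was 0.991. In female and male cells alone, described below, it was 1.23 (1.05 to 1.44) and 1.11 (0.990 to 1.25). *Ebf3* had a ratio of 0.972 (0.926 to 1.02), *Trp73* of 1.03 (0.969 to 1.10), *Lhx1* of 1.01 (0.913 to 1.11) and *Tbr1* of 1.04 (0.903 to 1.19), with intervals within 1.2-fold in either direction. Other settings moved some of these, as *Lhx1* was at 1.21 and *Trp73* at 0.917 after thinning, and *Tbr1* was at 1.25 (0.984 to 1.59) in female and 0.891 (0.732 to 1.08) in male cells.

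The less abundant factors were bounded less tightly. *Lhx5* had a ratio of 1.14 (0.974 to 1.32), *Ebf1* of 1.15 (0.976 to 1.36) and *Nhlh1* of 0.787 (0.586 to 1.04). *Ebf2*, with 53 UMIs over both libraries, had a ratio of 0.767 (0.376 to 1.46) and was below the minimum for the fold count. Leaving out the barcodes with fewer than 5 *Reln* UMIs gave 1.13 for *Ebf1* and 0.796 for *Nhlh1*, and leaving out the cell of each library with most UMIs of the gene gave 1.11 and 0.769. The genotypes differ in sex makeup, so cells were also compared within sex, as read from *Xist* and Y-linked transcripts. *Ebf1* had a ratio of 0.792 (0.576 to 1.08) between 178 knockout and 227 control female cells and of 1.484 (1.21 to 1.81) between 198 and 706 male cells. In either sex no factor passed 1.5-fold (0 of 7 and 0 of 8), against 5.19% and 5.42% of all genes.

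**Figure D3:**
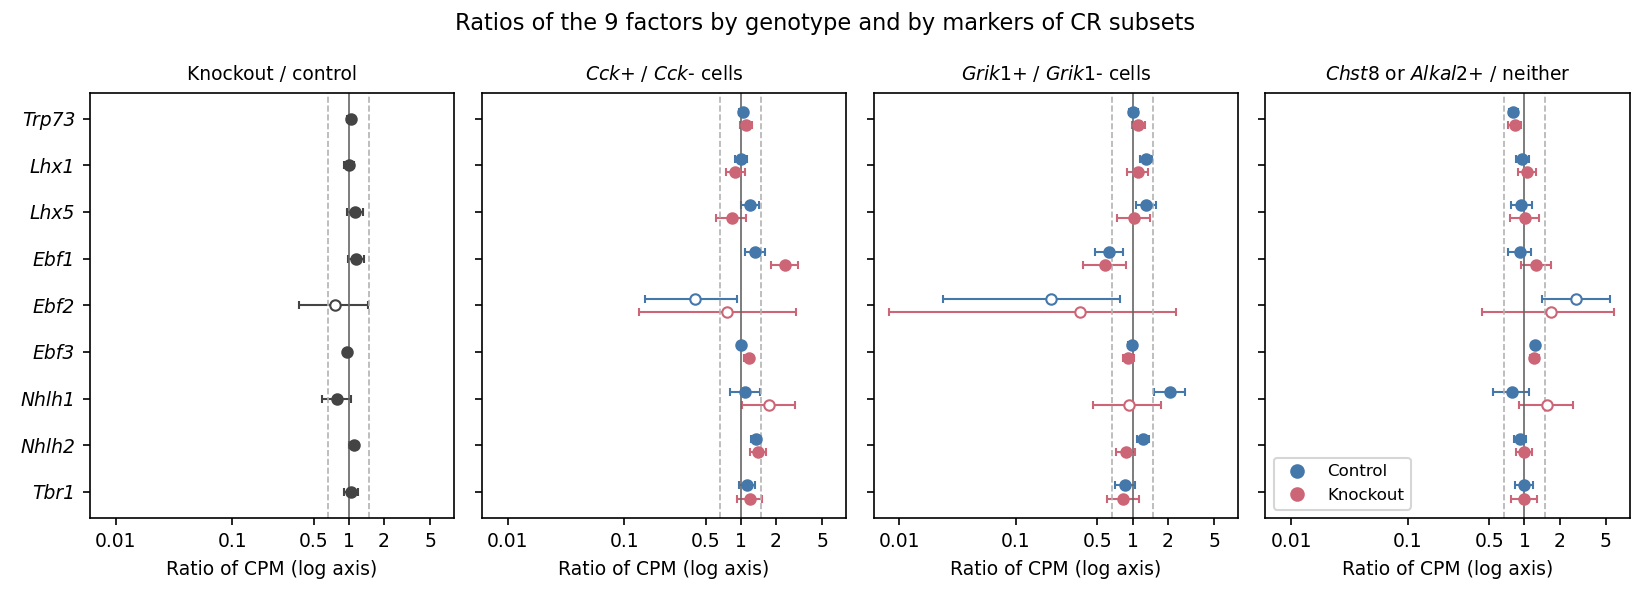
Ratio of CPM (log axis) for each factor between genotypes and between cells with and without a marker of a CR subset, in control (blue) and knockout (red) cells, with the ratio of knockout to control in grey. Bars are exact 95% intervals from counts, open symbols have fewer than 100 UMIs over the groups compared, and dashed lines mark 1.5-fold in each direction. *Ebf1* was higher in *Cck*-positive knockout cells and lower in *Grik1*-positive cells of both libraries.

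The cells were next divided by the genes *Cck*, which encodes the neuropeptide cholecystokinin, *Grik1*, which encodes a kainate receptor subunit, and *Chst8* or *Alkal2*, which encode a sulfotransferase and a receptor tyrosine kinase ligand. A cell was positive with at least 1 UMI, so deeper cells were more often positive. *Cck* was seen in 324 control and 110 knockout cells, with median depths of 6397 and 6788.5 UMIs against 6143 and 6389 in negative cells. *Cck* RNA was also present at 129.9 and 85.6 CPM in faint barcodes, which by the estimate above would give 0.960% and 0.387% of the *Cck* UMIs of cells. *Grik1* was seen in 194 and 71 cells, of which 93 and 37 held exactly 1 *Grik1* UMI. Its level was 79.2 CPM in control cells and 23.4 CPM in control faint barcodes. In the knockout library it was 47.6 CPM in cells and 58.9 CPM in faint barcodes, so it was not higher in cells there. By the same estimate free RNA would give 0.338% and 0.715% of the *Grik1* UMIs of cells. *Chst8* or *Alkal2* was seen in 232 and 91 cells. The last group was the deepest relative to its negative cells, with 6720.5 against 6050.0 UMIs in control and 7869 against 6256 UMIs in knockout. For the shares in thinned cells given below, positivity was called anew from the thinned counts. Fewer cells were then positive, 168 and 57 for *Cck*, 103 and 39 for *Grik1*, and 102 and 40 for *Chst8* or *Alkal2*. The rest counted as negative, so these shares are not of the same groups of cells.

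*Ebf1* and *Nhlh2* were higher in *Cck*-positive cells of both libraries. In knockout cells *Ebf1* had 135 CPM (110.2 to 163) in *Cck*-positive and 56.5 CPM (46.6 to 67.9) in *Cck*-negative cells, a ratio of 2.38 (1.81 to 3.13). It was the only 1 of 7 factors past 1.5-fold there, where 7.97% of all genes were. In control cells its ratio was 1.32 (1.09 to 1.60), with 81.3 and 61.4 CPM, or 1.27 without the top cell of each group, and 0 of 8 factors passed 1.5-fold, against 4.81% of all genes. The intervals of these ratios did not overlap between the libraries, but they are too narrow for *Ebf1* as described above, and with 1 library per genotype the difference has no replicate check. In thinned cells *Ebf1* was seen in 14 of 57 *Cck*-positive knockout cells (24.6%, 14.1 to 37.8) and in 34 of 349 negative cells (9.74%, 6.84 to 13.4). In control these shares were 8.93% and 9.13%. The knockout ratio was 2.43 without the single cell with most *Ebf1* UMIs in each group, and 2.45 without barcodes of fewer than 5 *Reln* UMIs.

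*Nhlh2* was higher in *Cck*-positive cells by 1.36-fold (1.23 to 1.502) in control and 1.41-fold (1.21 to 1.64) in knockout cells. The control values were 292 and 215 CPM and the knockout values 338 and 239 CPM. *Ebf3* was 1.17-fold (1.07 to 1.28) higher in *Cck*-positive knockout cells and had a ratio of 1.01 (0.951 to 1.06) in control. *Lhx5* had a ratio of 1.202 (1.00 to 1.44) in control and 0.836 (0.617 to 1.12) in knockout cells. For *Trp73* (1.04 and 1.11), *Lhx1* (1.01 and 0.899) and *Tbr1* (1.14 and 1.2) the intervals held 1 in both libraries. *Nhlh1* had a ratio of 1.09 (0.802 to 1.46) in control and of 1.76 (1.03 to 2.94) in knockout cells, the latter from 66 UMIs and thus below the minimum. *Ebf2*, also below it, had 7 UMIs in *Cck*-positive and 33 in negative control cells, a ratio of 0.403 (0.151 to 0.927), and 3 and 10 UMIs in knockout cells, a ratio of 0.761 (0.135 to 2.96). Once cells rich in respiratory chain transcripts, described below, were left out, the knockout ratio of *Nhlh2* was 1.14.

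By *Grik1*, *Ebf1* went the other way. *Grik1*-positive cells had 46.5 CPM (35.8 to 59.3) of *Ebf1* against 74.0 CPM (66.8 to 81.7) in control, a ratio of 0.628 (0.474 to 0.820). In knockout cells they had 49.97 CPM against 85.4 CPM, a ratio of 0.586 (0.376 to 0.879). These knockout values rest on 27 UMIs in *Grik1*-positive cells, and the ratio was 0.277 without the top cell of each group. *Ebf1* was thus lower in *Grik1*-positive cells of both libraries. The size was less stable. When cells were weighted equally the ratio was 0.711 in control and 0.291 in knockout. In thinned control cells *Ebf1* was seen in 8.74% of the 103 cells still *Grik1*-positive and in 9.14% of the other 908.

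*Nhlh1* was higher in *Grik1*-positive control cells, with 50.8 CPM (39.6 to 64.2) against 24.3 CPM (20.3 to 28.9), a ratio of 2.09 (1.54 to 2.82). It was 1.66 without the top cell of each group and 1.52 without respiratory-high cells. In knockout cells *Nhlh1* had a ratio of 0.935 (0.455 to 1.77) from 66 UMIs. *Nhlh1* and *Ebf1* were thus the 2 of 8 factors past 1.5-fold in control, where 6.97% of all genes were, and *Ebf1* was the 1 of 7 in knockout, where 8.27% were. The LIM-homeodomain factors were somewhat higher in *Grik1*-positive control cells, *Lhx1* with a ratio of 1.32 (1.17 to 1.482) and *Lhx5* with 1.30 (1.06 to 1.59). In knockout cells these ratios were 1.11 (0.903 to 1.35) and 1.03 (0.735 to 1.41), and the intervals of each gene overlapped between the libraries. *Nhlh2* was also higher in *Grik1*-positive control cells, with a ratio of 1.22 (1.09 to 1.37), and had 0.871 (0.715 to 1.06) in knockout. *Trp73* (1.01 and 1.12), *Ebf3* (0.984 and 0.922) and *Tbr1* (0.858 and 0.835) had intervals that held 1 in both libraries. *Ebf2* had 2 UMIs in *Grik1*-positive and 38 in negative control cells, a ratio of 0.201 (0.0235 to 0.778), and 1 and 12 UMIs in knockout cells.

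The *Chst8* or *Alkal2* split gave small differences in level that recurred in both libraries. *Ebf3* had 997 CPM in positive and 803 CPM in negative control cells, a ratio of 1.24 (1.17 to 1.32), and 952 and 781 CPM in knockout cells, a ratio of 1.22 (1.12 to 1.33). *Trp73* was lower in positive cells, with 395 against 493 CPM in control, a ratio of 0.802 (0.735 to 0.875), and 419 against 509 CPM in knockout, a ratio of 0.824 (0.724 to 0.935). The most abundant factors thus differed in opposite directions by this marker pair. In thinned cells *Ebf3* was seen in 87.3% (79.2 to 93.0) of positive and 74.8% (71.9 to 77.6) of negative control cells, but in 70.0% (53.5 to 83.4) and 71.6% (66.7 to 76.2) of knockout cells. *Ebf1* was seen in 3.92% (1.08 to 9.74) of positive and 9.68% (7.84 to 11.8) of negative thinned control cells. In thinned knockout cells these shares were 5.0% (0.611 to 16.9) and 12.6% (9.35 to 16.4). They rest on only 4 and 2 positive cells with *Ebf1*, and the intervals overlapped. Over all UMIs, no factor reached 1.5-fold (0 of 8 and 0 of 7), against 6.60% and 8.31% of all genes. *Ebf2* had 19 UMIs in 232 positive and 21 UMIs in 779 negative control cells, a ratio of 2.77 (1.41 to 5.41), and 5 and 8 UMIs in knockout cells, a ratio of 1.69 (0.436 to 5.87). These counts are below the minimum of 100 UMIs. *Lhx1* (0.961 and 1.06), *Lhx5* (0.941 and 1.01), *Ebf1* (0.912 and 1.26), *Nhlh1* (0.775 and 1.55), *Nhlh2* (0.917 and 0.994) and *Tbr1* (0.999 and 0.992) had intervals that held 1 in both libraries.

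The largest differences within the libraries, among the splits examined, ran with respiratory chain transcripts. In 85 control and 40 knockout cells at least 2% of UMIs came from 98 nuclear genes of the respiratory chain. The total for this share leaves out mitochondrial and ribosomal protein genes, as for CPM. Between 1.5% and 2.5% lay 52 and 21 cells. The respiratory-high cells (2% or more) are a range cut from a continuous share, and whether they form a distinct group was not tested. The study described a separate cluster of CR cells with high *Pcp4* and markers enriched for mitochondrial terms. Whether the respiratory-high cells belong to it was not tested either. Respiratory-high cells were deeper, with medians of 13372 against 6064 UMIs in control and 12919 against 6398 in knockout. *Nhlh2* had 631 CPM in respiratory-high and 179 CPM in other control cells, a ratio of 3.54 (3.19 to 3.92), and 711 and 189 CPM in knockout cells, a ratio of 3.76 (3.24 to 4.36). *Nhlh1* had 90.7 and 19.96 CPM in control, a ratio of 4.54 (3.39 to 6.07), and 68.7 and 15.5 CPM in knockout cells, a ratio of 4.44 (2.63 to 7.42) from 66 UMIs. Without the top cell of each group the ratios of *Nhlh1* were 3.79 and 3.67. Both neuronal helix-loop-helix genes were thus several-fold higher in these cells of each library.

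*Tbr1* was 2.50-fold (2.11 to 2.95) higher in respiratory-high control cells and 1.62-fold (1.21 to 2.13) higher in knockout cells. *Lhx1* was 1.95-fold (1.72 to 2.20) and 1.99-fold (1.65 to 2.39) higher, and *Lhx5* 1.45-fold (1.16 to 1.81) and 1.60-fold (1.16 to 2.17). *Trp73* did not follow them, with ratios of 1.15 (1.04 to 1.27) and 0.951 (0.814 to 1.11). *Ebf3* was lower, with ratios of 0.721 (0.661 to 0.785) and 0.861 (0.761 to 0.972). *Ebf1* was lower in control, at 26.98 against 74.9 CPM, a ratio of 0.360 (0.230 to 0.539). In knockout cells it had a ratio of 1.25 (0.866 to 1.77), which became 0.838 without the top cell of each group. The control ratio of *Ebf1* was then 0.298. *Ebf2* had 5 UMIs in the respiratory-high cells of each library, with ratios of 0.881 (0.269 to 2.26) and 3.54 (0.911 to 12.3).

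Counted by fold, 5 of 8 factors passed 1.5-fold in control (4 higher and *Ebf1* lower) and 4 of 7 in knockout (all higher), beside 54.1% and 52.0% of all genes, so the number of factors is near the background. Of all genes, 24.9% and 22.0% were at least 1.5-fold higher in respiratory-high cells. The depth of the cells differed with the split, and its part was looked at among cells of at least 8000 UMIs (64 respiratory-high and 180 other control cells, 24 and 93 knockout cells), where medians were still 14288 against 9032.5 and 16371.5 against 9467 UMIs. There the ratios were 3.04 and 3.67 for *Nhlh2*, 3.89 and 5.69 for *Nhlh1*, 1.99 and 2.28 for *Lhx1*, and 2.06 and 1.35 for *Tbr1*. *Lhx5* had ratios of 1.202 and 1.791 there. *Ebf3* had 0.764 and 0.963, so among these deeper knockout cells it was close to the level of the others. With every cell thinned to 2000 UMIs the ratios were 2.47 and 3.15 for *Nhlh2* and 4.71 and 4.41 for *Nhlh1*. After this thinning *Lhx5* had ratios of 1.055 and 1.984, from 12 and 10 UMIs in respiratory-high cells, and *Ebf3* had 0.775 and 0.661. *Nhlh1*, *Nhlh2*, *Tbr1*, *Lhx1* and *Lhx5* were higher, and *Ebf3* lower, both in respiratory-high cells and in faint barcodes than in the cells each was compared with. Whether these observations are related was not tested.

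**Figure D4:**
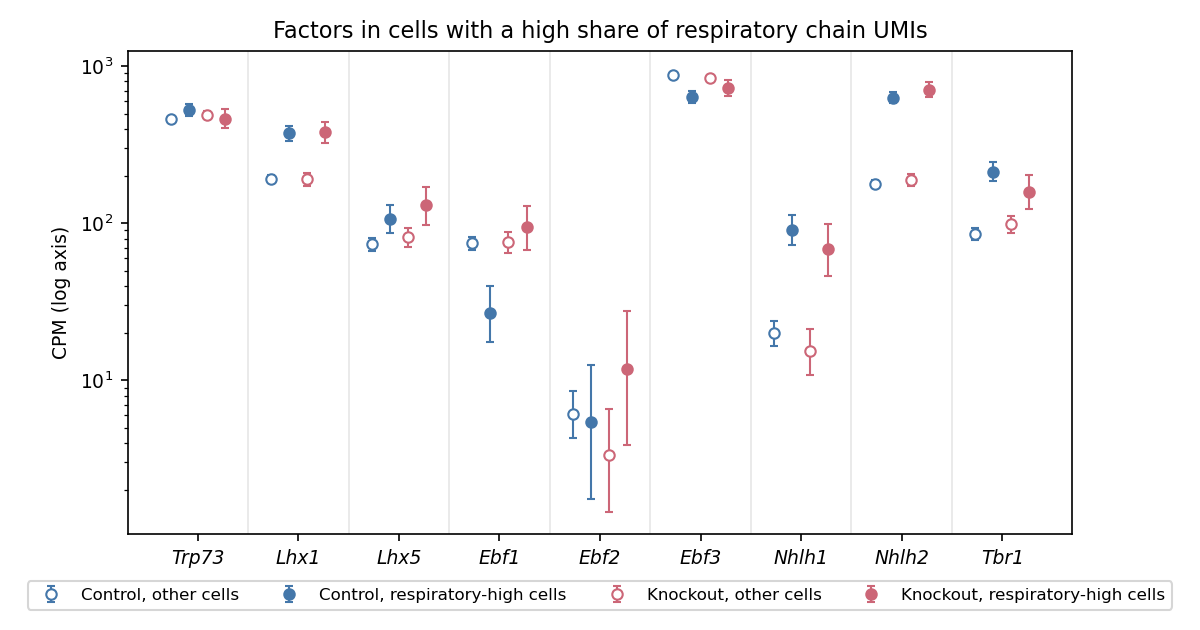
CPM (log axis) of each factor in cells with at least 2% (filled) and under 2% (open) of UMIs from nuclear respiratory chain genes, in control and knockout cells. The total for this share leaves out mitochondrial and ribosomal protein genes. Bars are exact 95% Poisson intervals. *Nhlh1*, *Nhlh2*, *Lhx1* and *Tbr1* were higher in the filled groups of both libraries, *Ebf3* was lower, and *Trp73* differed by less than 1.2-fold.

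The same genes varied with the depth of a cell. From control cells of 4000 to 8000 UMIs to those of 16000 or more, *Nhlh2* went from 161 CPM (148 to 174) to 601 CPM (535 to 673), and *Nhlh1* from 19.3 CPM (15.1 to 24.3) to 92.9 CPM (68.3 to 124). *Tbr1* went from 79.97 to 208 CPM, *Lhx1* from 189 to 344 CPM and *Lhx5* from 66.3 to 125 CPM. *Ebf1* went from 84.5 CPM (75.5 to 94.4) to 39.6 CPM (24.2 to 61.1), while *Trp73* had 452 and 520.0 CPM. Between the same bins of knockout cells *Nhlh2* went from 184 to 732 CPM and *Nhlh1* from 17.5 to 101 CPM, but *Ebf1* from 74.0 CPM (60.6 to 89.5) to 97.1 CPM (62.2 to 144). In the 39 knockout cells under 4000 UMIs *Ebf1* had 234 CPM (155 to 338), from 28 UMIs. Of the 28 deepest control cells 21 were respiratory-high, as were 12 of the 13 deepest knockout cells, so depth and respiratory share cannot be told apart at that end.

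At a common depth of 2000 UMIs, the factors were seen together about as often as their single shares would give. At least 3 of the 9 were seen in 418 of 1011 control cells (41.4%, 38.3 to 44.5) and in 167 of 406 knockout cells (41.1%, 36.3 to 46.1). None was seen in 41 and 20 cells, and 6 was the most in any cell. Of the 36 pairs, the number of cells with both genes gave an interval that held the product of the single shares in all 36 pairs in control and in 35 in knockout. The exception was *Ebf1* with *Nhlh2*, seen together in 26 knockout cells where the product gives 14.4, a ratio of 1.80 (1.19 to 2.60). In control the same pair was seen in 31 cells where the product gives 28.5. In another random thinning, 0 of 36 pairs lay outside in either library. No pair was seen together less often than its interval allowed. The product was at least 5 cells for only 27 of the 36 pairs in control and 23 in knockout. For the sparser pairs the interval was wide beside the product, so that holding it says little. The interval also did not take the single shares as fixed, so it was wide for other pairs too. For *Ebf3* with *Nhlh1* in control the product was 28.1 cells (2.78%), and 37 cells held *Nhlh1*. Had all 37 held *Ebf3*, the interval of 2.59 to 5.01% would still hold the product, so no excess could be found. An interval that holds the product thus does not show that 2 factors were independent.

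With all UMIs of each cell, where a deep cell shows more of every gene, at least 3 factors were seen in 87.8% and 89.2% of cells, and 7 cells of each library showed none. The product then lay below the interval for 5 control pairs, *Lhx5* with *Tbr1*, *Ebf1* with *Nhlh1*, *Nhlh1* with *Nhlh2* (90 cells, product 72.5), *Nhlh1* with *Tbr1* (69 cells, product 48.7) and *Nhlh2* with *Tbr1* (290 cells, product 248), and for none in knockout. *Lhx5* with *Tbr1* and the last 3 pairs are of genes that were higher in respiratory-high cells. Across cells, the correlation of log-scaled values between any pair of factors was at most 0.17 in control (*Nhlh1* with *Nhlh2*, 1011 cells) and 0.162 in knockout (*Trp73* with *Nhlh2*, 406 cells). Pairs of genes from 1 library share its depth and composition, and correlations this weak in sparse counts are no finding.

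**Figure D5:**
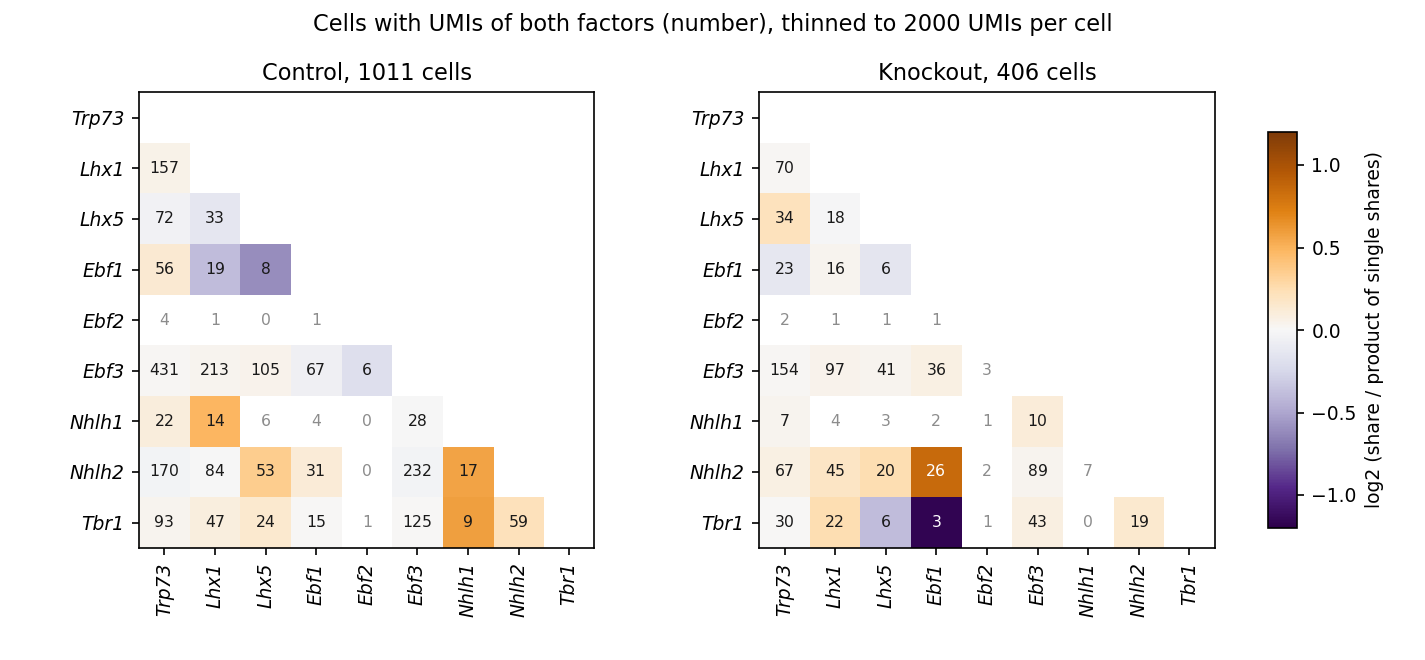
Number of cells with UMIs of both factors of a pair after each cell was thinned to 2000 UMIs, in control and knockout cells. The colour gives the log2 ratio of the share of cells with both to the product of the single shares, and is left out (grey numbers) where the product is under 5 cells. Only *Ebf1* with *Nhlh2* in knockout cells had an interval that left out the product. The dark field of *Ebf1* with *Tbr1* in knockout rests on 3 cells.

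Within families, the abundant gene was mostly seen alone, meaning that no UMI of the other genes was captured. Since their counts were sparse, this does not show that they were absent. Of 1011 control cells, 762 had UMIs of *Ebf3* without the other EBF genes, 178 had *Ebf1* and *Ebf3*, and 6 had *Ebf1* alone. Of 406 knockout cells, these numbers were 282, 87 and 4. *Ebf3* was seen in 96.9% of control cells with *Ebf1* and in 95.7% of those without, and in 95.7% and 93.0% of knockout cells, so cells with and without *Ebf1* had it about equally often. *Lhx1* was seen alone in 398 control and 139 knockout cells, with *Lhx5* in 211 and 114, and *Lhx5* was seen alone in 116 and 44. *Nhlh2* was seen alone in 521 and 222 cells, with *Nhlh1* in 90 and 29, and *Nhlh1* alone in 30 and 11 cells.

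*Ebf1* is also known from mural cells and B cells, so the markers of other types were compared between cells with and without it. The lists held no B cell markers, so B cells were not examined. The 4 mural markers summed to 147 CPM in *Ebf1*-positive and 77.6 CPM in *Ebf1*-negative knockout cells. Without barcodes of fewer than 5 *Reln* UMIs, 1 of which held 6 *Ebf1* UMIs, they summed to 71.7 and 77.8 CPM. In control cells the sums were 61.6 and 86.5 CPM. Microglial markers summed to 42.1 and 35.4 CPM in *Ebf1*-positive and *Ebf1*-negative control cells and to 20.0 and 36.9 CPM in knockout cells. The sum of fibroblast markers was higher in *Ebf1*-positive cells of both libraries (13.5 against 8.29 CPM and 22.9 against 14.7 CPM). Over all cells this sum was mostly *Col1a1*, with 56 UMIs in control and 46 in knockout. *Col1a2* had 4 and 1 UMIs, *Dcn* 2 and 0, and *Lum* 0 in both libraries. Endothelial markers were at 38.3 against 32.6 CPM in control and 25.7 against 29.8 CPM in knockout. The part of these in the *Ebf1* values was not tested. CR markers were at 14410 CPM in *Ebf1*-positive and 14280 CPM in *Ebf1*-negative knockout cells, so the cells with *Ebf1* had CR markers at the level of the rest.

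The 2 genes most like each factor across cells were sought among 909 genes with at least 500 UMIs in each library. Of these, a correlation of 0.2 or more in both libraries was found for *Ebf3* with *Lsamp*, which encodes a cell adhesion protein (0.21 in control and 0.459 in knockout), and with *Sgip1*, an endocytic adaptor (0.222 and 0.44). *Nhlh2* had such values with *Pcp4*, a calmodulin regulator (0.264 and 0.329), and with the selenoprotein gene *Selenow* (0.296 and 0.283). Without respiratory-high cells, these 8 values ranged from 0.0575 to 0.253. The points share library, depth and composition, and the values are a description over 1011 and 406 cells.

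The partners of the factors differed by less than 1.5-fold between genotypes where they could be measured, beside 4.45% of all genes past that fold. For the LIM-homeodomain proteins, 7 of 10 LDB, SSBP, LMO and RLIM cofactor genes had at least 100 UMIs and none differed by 1.5-fold. *Ssbp2* was the most abundant of them (585 CPM in control and 592 CPM in knockout), followed by *Ssbp3* (84.7 and 84.2 CPM) and *Rlim* (74.1 and 67.5 CPM). The intervals of *Lmo4*, with a ratio of knockout to control of 1.44 (1.11 to 1.86), *Lmo2*, with 0.709 (0.559 to 0.892), and *Ldb1*, with 0.807 (0.670 to 0.967), left out 1. The other 3 were sparse, with 0 UMIs of *Lmo1*, 0 and 1 of *Lmo3*, and 3 and 11 of *Ldb2*, a ratio of 8.65 (2.29 to 48.3). These 6 genes were chosen after their values were seen. Of the E proteins, which pair with NHLH factors, and their Id inhibitors, 5 of 7 were measured and none differed by 1.5-fold, with *Tcf4* (928 and 917 CPM), *Tcf12* (274 and 276 CPM) and *Id4* (86.2 and 91.7 CPM) the highest. The EBF partners *Zfp521* (26.1 and 23.5 CPM) and *Zfp423* (17.9 and 13.5 CPM), and the TBR1 partners *Bcl11a* (809 and 813 CPM) and *Cask* (86.01 and 76.8 CPM), also did not reach 1.5-fold.

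Other genes of the same families were mostly lower. Of 15 examined, 5 had at least 100 UMIs over both libraries, and only *Lhx9*, a LIM-homeodomain gene, passed 1.5-fold, with 15.7 CPM in control and 9.95 CPM in knockout, a ratio of 0.635 (0.403 to 0.972), beside 4.45% of all genes. The highest in control were *Lhx2* (48.7 and 44.1 CPM), *Trp53* (26.8 and 25.6 CPM) and *Lmx1a* (17.5 and 19.6 CPM), a gene of the cortical hem. Of 29 genes of CR lineages and of other forebrain fates, 12 had at least 100 UMIs over both libraries and none passed 1.5-fold, with *Nr2f2* (387 and 433 CPM), *Emx2* (347 and 382 CPM) and *Sox4* (98.7 and 86.7 CPM) the highest in control. *Neurod6*, *Neurog1* and *Dbx1* had 0 UMIs in both libraries. The median log2 ratios of these 6 lists lay between -0.28 (EBF partners) and 0.03 (lineage and fate genes), against 0.01 over all genes.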

How the data were processed

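Sorted hippocampal cells of 2 pools of 4 mice were profiled by 10x 3′ v3.1 single-cell RNA-sequencing. The authors deposited raw UMI counts per gene and barcode, unfiltered, made with Cell Ranger. The submitters' processing notes name version 8.0.1 and mm39, while the study's methods and the matrix headers name other versions and mm10, and the use of introns and strand was not given in the sources used here.

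Barcodes of at least 2000 UMIs were kept as cells, with no other filter and no doublet caller. UMIs were summed over cells per library or group and divided by the total without 192 mitochondrial and ribosomal protein genes (CPM). Poisson, Clopper-Pearson and conditional Poisson intervals were exact at 95%. A difference was counted from 1.5-fold among genes with at least 100 UMIs over both groups. Cells and groups share a library, so no test was made. The factors and lists were chosen with earlier results of these data known. The 9 factors were named in every comparison, and of each list the highest 3 in control and those past the fold. Floors were 3 counts. Python 3.11.15, numpy 2.4.6, scipy 1.17.1 and pandas 2.3.3 were used. Intervals and thinning were tested on simulated Poisson and multinomial counts. These hold no extra spread over cells, so they do not show how the intervals do for genes with wider counts, such as *Ebf1*.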

Additional observations from a re-analysis of the deposited data

How the results depend on the processing

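No paired analysis was possible because each genotype had 1 library and no replicate. The count of factors past 1.5-fold between genotypes was 0 under each alternative run (UMI limits, quality limits, scaling, thinning, subtraction of free RNA, sex). The counts in the marker splits moved. By *Cck*, control went from 0 to 1 after thinning and to 1 with no minimum of UMIs, and knockout from 1 to 2 with positivity at 2 UMIs and to 2 with no minimum. By *Grik1*, control went from 2 to 0 after thinning and to 1 with equal weight per cell, and knockout from 1 to 2 with positivity at 2 UMIs, to 0 after thinning and to 2 with no minimum. By *Chst8* or *Alkal2*, control went from 0 to 1 with positivity at 2 UMIs, to 1 after thinning and to 1 with no minimum, and knockout from 0 to 1 after thinning and to 2 with no minimum. After thinning, 7 factors in control and 4 in knockout kept 100 UMIs. With faint barcodes of 10 to 50 UMIs the control count was 4, not 8, and *Ebf1* (0.9555) and *Tbr1* (1.449) changed direction, and the cause was not tested. Cells with at least 3 factors were 87.83% and 89.16% with all UMIs and 78.07% and 76.57% at 4000 UMIs, as more UMIs show more genes. The counts without barcodes low in *Reln*, without the top cell of each marker group and in respiratory-high cells were added after seeing the data. All of these counts stayed within 1.5 times, at 4 to 6 in respiratory-high control and 3 to 4 in knockout cells. The factors behind the counts in respiratory-high cells changed. With equal weight per cell *Ebf3* passed as lower, at 0.649 in control and 0.606 in knockout. *Lhx5* in knockout was at 1.60 in the main run, 1.46 without the top cell and 1.155 with equal weight. *Nhlh1* was at 4.16 in control and 2.74 in knockout with equal weight. Pooling, 1 library per genotype and shallow counts of *Ebf2* and *Nhlh1* limit all values.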
